A study of Mus musculus with 6 samples.

Results

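The genes of the insulin-like growth factor (IGF) system were compared between mouse melanomas grown at a pair of sites, the hind footpad and flank skin. The 9 genes were taken by symbol from the deposited table of 45777 genes: the ligand Igf1, the receptors Igf1r and Igf2r, and the binding proteins Igfbp2, Igfbp3, Igfbp4, Igfbp5, Igfbp6 and Igfbp7. All 9 were listed, and 8 of them passed the filter on low counts, which left 17210 genes. Igfbp2 did not pass. B16F10, an established mouse melanoma line, was grafted into both sites, and total RNA of 3 footpad tumors and 3 flank skin tumors was sequenced, with 1 library per tumor. The sample labels give every host as Foxn1-/- at an age of 8 weeks, for the footpad and the flank group alike. Foxn1-/- (nude) mice lack a functional thymus and T cell immunity but keep innate immune cells and a stroma. The study describes B16F10 grafts in C57BL/6J as well as in Foxn1-null mice, and its text does not name the host of the sequenced tumors. It asked how the weight-bearing site shapes gene expression in the tumor. By its methods, B16F10 cells were injected at the same time into flank and footpad, so that tumors of both sites may come from 1 mouse. The labels number the tumors of each site and do not say which shared a mouse, so that p-values measure only the spread between these tumors, which may in part be technical.

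IGF-I is a secreted growth factor that signals through the receptor tyrosine kinase IGF1R to the PI3K-AKT and MAPK pathways. IGF2R, the cation-independent mannose 6-phosphate receptor, takes up IGF-II for degradation and sorts lysosomal enzymes. The secreted IGF binding proteins hold IGFs in the extracellular space, extend their lifetime or keep them from the receptor, and are set free by proteases. Igfbp7 encodes a related protein that binds IGFs weakly. In skin, fibroblasts and macrophages are known sources of Igf1.

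Of the 8 genes tested, 3 rose in footpad tumors and 0 fell in the quasi-likelihood test of edgeR (adjusted p under 0.05 by Benjamini-Hochberg over all genes, and at least a 2-fold change). No member was lower at an unadjusted p under 0.05 either. Over all genes tested, edgeR called 3.76%, of which 2.89% were higher and 0.872% lower in footpad tumors. DESeq2 called the same 3 members and no member lower, against 6.71% of all genes higher and 2.05% lower. The 3 genes were Igfbp5, Igfbp6 and Igfbp7. The fitted log2 fold change was above 0 for 7 of the 8 genes, against 49.7% of all genes tested. Its median was 0.88 over the 8 genes and -0.00425 over all genes. In 3 of the 8 genes, those called, every footpad tumor lay above every flank tumor, which was so for 17.5% of all genes tested.

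The number of calls depended on single tumors, for the family and for all genes. Without footpad replicate 1, 2 and 3 in turn, edgeR called 1, 3 and 0 members, and 0.173%, 4.74% and 0.0% of all genes in either direction. Without flank replicate 1, 2 and 3 it called 1, 2 and 2 members, and 1.73%, 2.93% and 0.257% of all genes. At an unadjusted p under 0.05, 3 members remained without footpad replicate 3, and they were Igfbp5, Igfbp6 and Igfbp7. The lone calls were Igfbp6, and the pairs of calls were Igfbp5 and Igfbp6.

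The promoters of the 3 called genes are shown because these genes share the direction of their call. Each is the stretch of 250 bases just before the transcription start annotated by RefSeq on GRCm38.p6, the assembly of the authors' mm10 build, read 5′ to 3′ on the strand of the gene. The windows are chr1:72874866-72875115 on the minus strand for Igfbp5, chr15:102143936-102144185 on the plus strand for Igfbp6 and chr5:77408046-77408295 on the minus strand for Igfbp7. Capitals mark GGAATG or its reverse complement CATTCC, the core of the site that TEAD factors, the DNA-binding partners of YAP, are known to bind.
Igfbp5: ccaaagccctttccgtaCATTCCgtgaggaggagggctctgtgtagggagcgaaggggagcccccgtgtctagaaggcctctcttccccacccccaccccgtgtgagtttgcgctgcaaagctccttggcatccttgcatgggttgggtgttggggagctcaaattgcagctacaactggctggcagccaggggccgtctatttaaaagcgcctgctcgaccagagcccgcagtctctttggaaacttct
Igfbp6: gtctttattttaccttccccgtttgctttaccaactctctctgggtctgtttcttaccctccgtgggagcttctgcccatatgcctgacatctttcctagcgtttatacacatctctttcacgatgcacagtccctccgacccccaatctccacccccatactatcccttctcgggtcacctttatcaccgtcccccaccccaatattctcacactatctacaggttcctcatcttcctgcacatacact
Igfbp7: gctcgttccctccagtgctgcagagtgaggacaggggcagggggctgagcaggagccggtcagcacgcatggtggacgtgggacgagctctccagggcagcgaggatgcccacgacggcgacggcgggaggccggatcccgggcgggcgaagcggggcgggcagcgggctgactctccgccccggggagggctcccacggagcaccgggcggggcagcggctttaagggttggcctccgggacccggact
Among the 10 RefSeq promoter windows of the 9 members, only the Igfbp5 window held the core, 233 bases before the start. Of 32851 mouse promoter windows of this length, 12.6% held it. The windows also differed in base composition. GC content was 58.8% for Igfbp5, 49.6% for Igfbp6 and 74.0% for Igfbp7, which had 10, 7 and 26 CpG sites, and the median over all windows was 52.4%. Bases shortly after the start were found in a transcript of the gene in GENCODE, a second annotation, for Igfbp5 and Igfbp7. They were not for Igfbp6, so that the start used for Igfbp6 was not backed by this check. The sequence match is a description of these letters only.

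Counts were scaled with edgeR's TMM method to the effective size of the library and are given as CPM. Between 46529649 and 66364366 reads were counted on genes per tumor, and a count of 3 reads, taken as the limit of detection, equalled 0.0438 to 0.0673 CPM. Melanocyte markers were found in all 6 libraries, with summed levels of 10256 to 19016 CPM in footpad and 15089 to 25878 CPM in flank tumors. Footpad replicate 2 stood apart in markers of skin and muscle. Its 9 keratinocyte markers summed to 439.7 CPM, against 0.155 to 21.7 CPM in the other 5 tumors, and its 10 skeletal muscle markers to 1101 CPM, against 11.3 to 201 CPM. Each called gene of the family is therefore also given without this library.

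**Figure D1:**
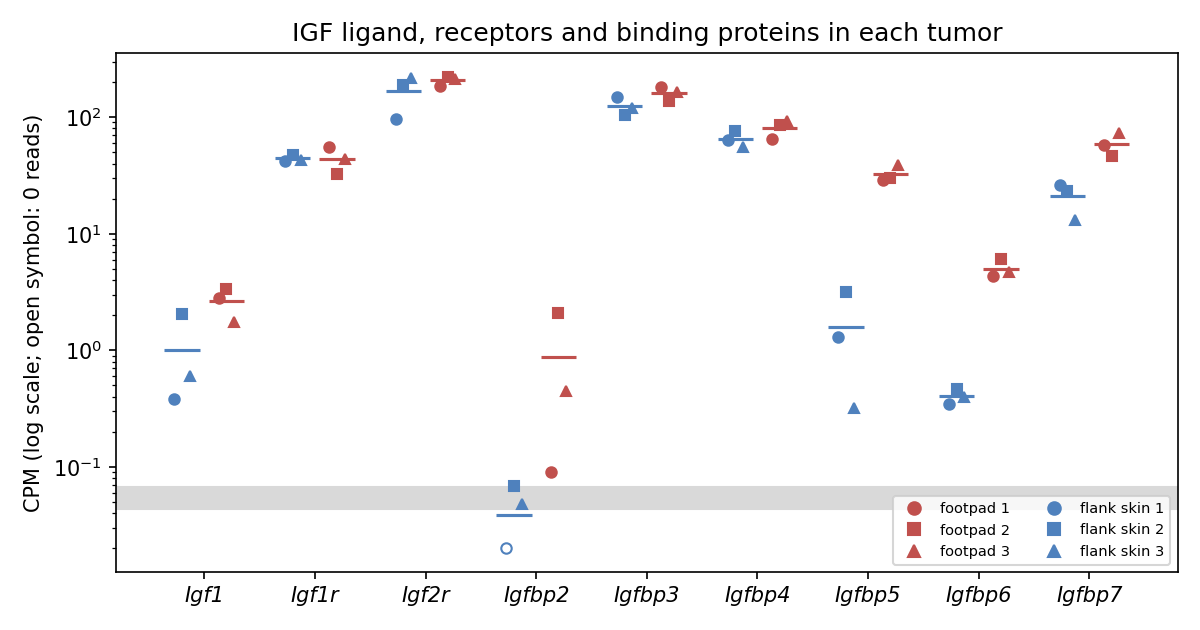
CPM (log scale) of the 9 genes in each tumor, with flank skin tumors in blue and footpad tumors in red, the symbol giving the replicate number and the horizontal line the mean of the site (n = 3). The grey band is the level of 3 reads, and the open symbol is a tumor with 0 reads of Igfbp2, drawn at the foot of the axis. The 2 groups lie apart for Igfbp5, Igfbp6 and Igfbp7 and overlap for Igf1, Igf1r, Igf2r, Igfbp3 and Igfbp4. For Igfbp2, which did not pass the filter on low counts, they also lie apart, but in part near the grey band.

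Levels were compared between genes as FPKM, the authors' value per length of transcript and per library size. In footpad tumors the order of mean levels was Igfbp3 at 55.7 FPKM, Igfbp7 at 46.5, Igfbp4 at 34.5, Igf2r at 20.7, Igfbp5 at 5.0, Igfbp6 at 3.48, Igf1r at 3.24, Igfbp2 at 0.611 and Igf1 at 0.333 FPKM. Within this order the ranges over the 3 tumors overlapped between Igfbp3 and Igfbp7, Igfbp7 and Igfbp4, Igfbp5 and Igfbp6, Igfbp6 and Igf1r, and Igfbp2 and Igf1. In flank tumors the order was Igfbp3 at 45.0 FPKM, Igfbp4 at 27.6, Igf2r at 17.0, Igfbp7 at 16.5, Igf1r at 3.31, Igfbp6 at 0.276, Igfbp5 at 0.250, Igf1 at 0.130 and Igfbp2 at 0.0237 FPKM. Here the ranges overlapped between Igf2r and Igfbp7, Igfbp6 and Igfbp5, Igfbp5 and Igf1, and Igf1 and Igfbp2. Igfbp3 was the most abundant member at both sites, and the ligand was among the last 2 at both.

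The ligand Igf1 lies on chromosome 10 from 87858265 to 87937047. The footpad tumors, in the order of replicates 1, 2 and 3 used throughout, held 2.81, 3.35 and 1.74 CPM, and the flank tumors 0.379, 2.04 and 0.607 CPM, from 22 to 230 reads. Flank replicate 2 lay above footpad replicate 3, so that the sites overlapped. The log2 fold change was 1.39 (edgeR, adjusted p = 0.221), with a standard error (SE) of 0.64 and a 95% interval from -0.10 to 2.87. Leaving out flank replicate 2 raised the estimate to 2.40, and leaving out footpad replicate 2 gave 1.17. Its adjusted p lay between 0.0556, without flank replicate 2, and 0.443 over the alternatives run.

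Macrophage markers summed to 275 to 313 CPM in footpad tumors and to 35.8, 195 and 87.6 CPM in flank replicates 1, 2 and 3. Among flank tumors this sum was lowest in replicate 1 and highest in replicate 2, as was Igf1. The summed fibroblast and endothelial markers had the same order there. All 13 macrophage markers had a higher fitted mean in footpad tumors, and none was at 0 reads in all tumors. Of the 13, 1 was called higher, against 2.89% of all genes tested. This was Cd68, which had another order in flank replicates 1, 2 and 3, at 8.80, 6.89 and 4.43 CPM. The log2 ratio of Igf1 to the summed macrophage markers was -6.78, -6.36 and -7.50 in footpad tumors and -6.56, -6.59 and -7.17 in flank tumors. The means of the sites differed by -0.10, with overlap (two-sided exact permutation test, p = 0.8). Relative to the summed endothelial and melanocyte markers, Igf1 differed by 0.96 and 2.18, also with overlap (exact permutation p = 0.3 and 0.2). Relative to the summed fibroblast markers, the log2 ratio of Igf1 was lower in footpad tumors, -10.42 ± 0.76 against -8.16 ± 0.25 (SD, n = 3), without overlap (exact permutation p = 0.1, the smallest that 3 tumors against 3 allow). After Benjamini-Hochberg adjustment over 16 ratios this p was 0.160. In bulk RNA, fewer cells of a type and less RNA per cell cannot be told apart, and the part of these cells in the level of Igf1 was not tested.

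The signaling receptor Igf1r, on chromosome 7 from 67952257 to 68233668, was at 55.9, 32.8 and 43.4 CPM in footpad tumors and at 42.3, 47.8 and 42.8 CPM in flank tumors. The footpad tumors held both the highest and the lowest of the 6 levels. The log2 fold change was -0.01 (SE 0.20, adjusted p = 0.983 from edgeR), with a 95% interval from -0.47 to 0.45, and its sign changed between alternatives. Igf1r stood above Igf1 in every tumor. Per length, its level was 5.64 to 14.9 times that of Igf1 in footpad tumors and 13.9 to 69.9 times in flank tumors, with the sites overlapping.

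Igf2r, on chromosome 17 from 12682406 to 12769706, was at 186, 223 and 213 CPM in footpad tumors and at 96.4, 188 and 218 CPM in flank tumors. Flank replicate 1 was the low value, and the other 5 tumors lay close together. Its log2 fold change was 0.31 (SE 0.28, adjusted p = 0.533 from edgeR; 95% interval -0.35 to 0.97) and 0.02 without flank replicate 1. The antisense RNA Airn overlaps Igf2r and had 61 to 126 reads. The counting program and its use of strand are not given in the sources used here, and Igf2r itself had 5589 to 15272 reads.

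Igfbp3 and Igfbp4 were the abundant binding proteins that were not called. Igfbp3, the main carrier of IGFs in blood, lies on chromosome 11 from 7206086 to 7215498. It was at 182, 138 and 163 CPM in footpad tumors and at 149, 104 and 120 CPM in flank tumors. The ranges overlapped, and the log2 fold change was 0.37 (SE 0.18, adjusted p = 0.238 from edgeR; 95% interval -0.04 to 0.79). Igfbp4, an inhibitor of IGF action until it is cut by the protease PAPP-A, lies on chromosome 11 from 99040005 to 99052655. It was at 65.0, 86.4 and 92.1 CPM in footpad tumors and at 63.2, 76.4 and 55.5 CPM in flank tumors. Its log2 fold change was 0.32 (SE 0.18, adjusted p = 0.316 from edgeR; 95% interval -0.11 to 0.75). A change of 2-fold or more lay outside the 95% interval of Igf1r, Igf2r, Igfbp3 and Igfbp4, and inside that of Igf1.

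Igfbp5 had the largest rise of the family. The gene, whose product binds to extracellular matrix as well as to IGFs, lies on chromosome 1 from 72858065 to 72874865. It was at 29.1, 30.3 and 39.0 CPM in footpad tumors and at 1.31, 3.16 and 0.320 CPM in flank tumors. Every footpad tumor lay above every flank tumor. The footpad tumors differed among themselves by 1.34-fold and the flank tumors by 9.90-fold, with flank replicate 3 lowest and flank replicate 2 highest. Its log2 fold change was 4.36 (SE 0.70, adjusted p = 0.0234 from edgeR), a 20.5-fold difference with a 95% interval from 6.61-fold to 63.9-fold. Without footpad replicate 2 the call held at 4.41 (edgeR, adjusted p = 0.0308). The call was lost without footpad replicate 1, without footpad replicate 3 and without flank replicate 1, with adjusted p of 0.0845, 0.101 and 0.0629 from edgeR and log2 fold changes of 4.44, 4.22 and 4.24. Without flank replicate 3 the log2 fold change was 3.86, and without flank replicate 2 it was 5.33, and both passed.

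Igfbp6 had the smallest adjusted p. It encodes a binding protein with a preference for IGF-II and lies on chromosome 15 from 102144186 to 102149512. It was at 4.33, 6.01 and 4.74 CPM in footpad tumors and at 0.345, 0.462 and 0.3995 CPM in flank tumors, where it had 20 to 27 reads. Both groups were tight, with a coefficient of variation of 17.4% in footpad and 14.5% in flank tumors, and a wide gap lay between them. Its log2 fold change was 3.64 (SE 0.32, adjusted p = 0.00677 from edgeR), or 12.4-fold with a 95% interval from 7.48-fold to 20.7-fold. Without footpad replicate 2 it was 3.49 (adjusted p = 0.0149 from edgeR). Igfbp6 passed in 5 of the 6 fits that left out 1 tumor and missed the threshold without footpad replicate 3 (log2 fold change 3.68, adjusted p = 0.0541 from edgeR).

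Igfbp7, a matrix-associated protein abundant in blood vessels, lies on chromosome 5 from 77349240 to 77408045. It was at 57.6, 46.2 and 73.0 CPM in footpad tumors and at 26.3, 23.3 and 13.0 CPM in flank tumors. The sites did not overlap. The log2 fold change was 1.50 (SE 0.29, adjusted p = 0.0351 from edgeR), or 2.82-fold with a 95% interval from 1.78-fold to 4.48-fold. Without footpad replicate 2 it was 1.64 (adjusted p = 0.0349 from edgeR), and this was the only one of the 6 fits without a tumor in which Igfbp7 passed. In the other 5 the log2 fold change stayed between 1.24 and 1.69, with adjusted p from 0.0531 without flank replicate 1 to 0.131 without footpad replicate 3. The gene overlaps Polr2b on the other strand. Polr2b had 5857, 12704 and 8132 reads in footpad and 7405, 10958 and 12649 reads in flank tumors, against 815 to 3575 for Igfbp7. Whether reads of Polr2b were counted as Igfbp7 was not tested.

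**Figure D2:**
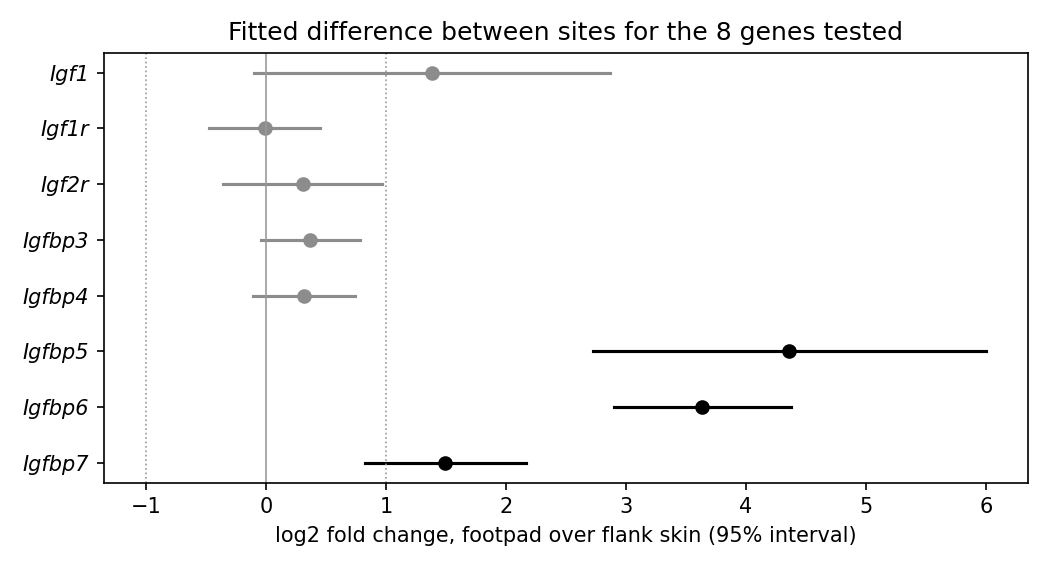
Log2 fold change of footpad over flank skin tumors (horizontal axis) from edgeR for the 8 genes tested, with 95% intervals from 3 tumors a site. Black marks the 3 called genes, grey the others, and the dotted lines a 2-fold change. Igfbp5 (4.36) and Igfbp6 (3.64) lie well above the limit, Igfbp7 (1.50) has an interval that crosses it, and Igf1r (-0.01) lies at 0.

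Igfbp2, on chromosome 1 from 72824480 to 72852474, was at 4 reads or fewer in 4 of the 6 tumors. It had 4, 143 and 22 reads in footpad replicates 1, 2 and 3 and 0, 4 and 3 reads in flank replicates 1, 2 and 3, which is 0.0898, 2.09 and 0.449 CPM against 0, 0.0684 and 0.0479 CPM. Footpad replicate 2, the library with skin and muscle markers, had most of the reads. The sites did not overlap in CPM, but footpad replicate 1 and flank replicate 2 had 4 reads of Igfbp2 each. Fitted without a filter on low counts, its adjusted p was 0.103 from edgeR. Igfbp2 and Igfbp5 are neighbors, 5590 bases apart, and differed in level in footpad tumors. Per length, Igfbp5 was at 4.07 to 6.06 FPKM there and Igfbp2 at 0.0553 to 1.47 FPKM. In flank tumors the ranges overlapped, 0.0465 to 0.522 FPKM for Igfbp5 and 0 to 0.0499 FPKM for Igfbp2. The other neighboring pair showed a wider contrast. Igfbp1 lies 3539 bases from Igfbp3, the most abundant member, and had 0 reads in all 6 tumors.

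The mix of binding proteins was measured as the share of each in the summed FPKM of Igfbp2 to Igfbp7 in the same tumor, a measure that does not depend on scaling between libraries but does on the length assigned to each gene. The sum was 133, 135 and 169 FPKM in footpad tumors and 94.1, 96.9 and 77.8 FPKM in flank tumors, without overlap (two-sided exact permutation p = 0.1, the smallest that the design allows). Igfbp7 held 31.7% ± 3.2 of the sum in footpad and 18.1% ± 4.2 in flank tumors (SD, n = 3). Igfbp5 held 3.41% ± 0.31 against 0.264% ± 0.247, and Igfbp6 held 2.42% ± 0.70 against 0.309% ± 0.071. For these 3 genes the sites did not overlap (exact permutation p = 0.1 each, 0.2 after Benjamini-Hochberg adjustment over the 6 genes). Igfbp3 held 38.4% ± 5.1 in footpad and 50.6% ± 7.0 in flank tumors, and Igfbp4 23.6% ± 4.6 and 30.7% ± 4.7, both with overlap (exact permutation p = 0.2). With CPM in place of FPKM the difference in share went from 3.15 to 8.88 percentage points for Igfbp5, from 13.5 to 7.51 for Igfbp7 and from 2.11 to 1.31 for Igfbp6, again without overlap. Igfbp3 and Igfbp4 together made up 59.3% to 63.5% of the sum in footpad tumors and 78.3% to 86.3% in flank tumors.

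**Figure D3:**
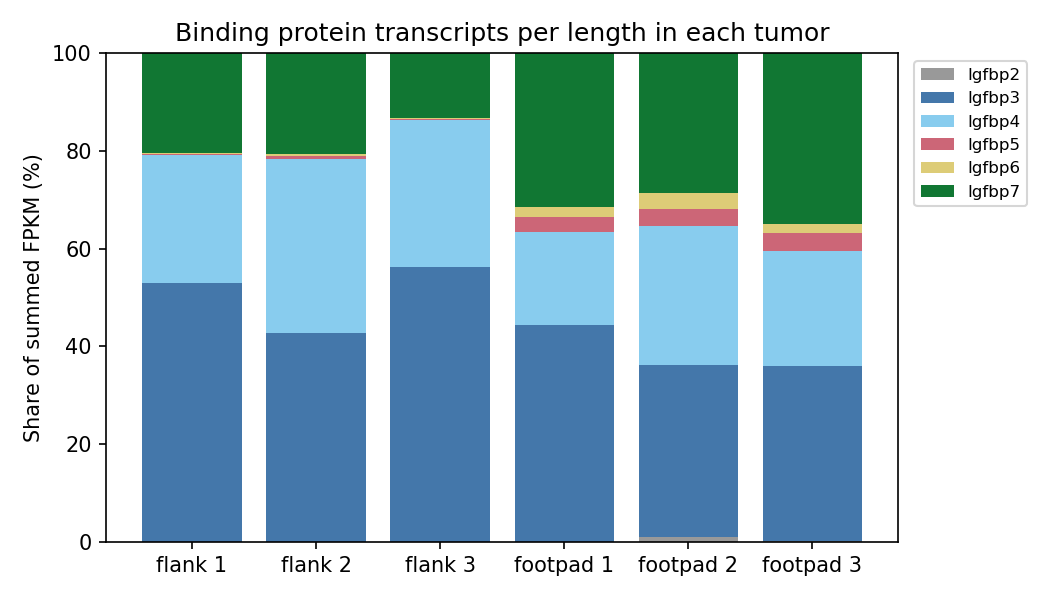
Share of each binding protein (vertical axis, percent) in the summed FPKM of Igfbp2 to Igfbp7, 1 bar per tumor. Igfbp3 and Igfbp4 fill 78.3% to 86.3% of the flank bars and 59.3% to 63.5% of the footpad bars, and Igfbp7, Igfbp5 and Igfbp6 take up the rest apart from a trace of Igfbp2.

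Fibroblast markers were higher in footpad tumors, as were Igfbp5 and Igfbp6. Among flank tumors the summed markers were lowest in replicate 1 and Igfbp5 in replicate 3. Igfbp6 had the order of the sum there but varied only 1.34-fold. Of 15 such markers, 11 were called higher in footpad tumors, against 2.89% of all genes tested, and none was at 0 reads in all tumors. Among those called were Dcn and Col1a1, with log2 fold changes of 3.56 and 4.10. Pdgfra, Dpt, Pi16 and Fbln1 were not called, and Fbln1 had the smallest change of the 15, 0.30 (adjusted p = 0.335 from edgeR). The 15 markers summed to 3173, 3080 and 4336 CPM in footpad replicates 1, 2 and 3, and to 131, 497 and 167 CPM in flank replicates 1, 2 and 3. A few genes made up much of this sum. In footpad replicate 1, Col3a1, Col1a1, Col1a2 and Postn were at 1279, 686, 637 and 355 CPM. Fbln1 was at 45.3 CPM in footpad replicate 1 and at 40.1 CPM in flank replicate 1. The makeup of the sum thus differed between sites, and the study describes high collagen gene expression in melanoma cells themselves. The log2 ratio of Igfbp5 to this sum was -6.74 ± 0.07 in footpad and -7.66 ± 1.23 in flank tumors (SD, n = 3), with overlap (two-sided exact permutation test, p = 0.4). This difference of 0.91 depended on the setting. The sites lay apart when FPKM replaced CPM (1.19), when the median of the markers replaced their sum (1.15) and without flank replicate 1 (1.42), each at an exact permutation p of 0.1, and the difference was 0.22 without flank replicate 3. For Igfbp6 it was -9.45 ± 0.42 and -9.12 ± 0.83, also with overlap (exact permutation p = 0.6). The pattern of Igfbp7 was another one. Its ratio to the fibroblast markers was lower in footpad tumors, -5.91 ± 0.14 against -3.47 ± 1.06, without overlap (exact permutation p = 0.1, the smallest possible, and 0.160 after adjustment over 16 ratios).

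Endothelial markers summed to 404 to 495 CPM in footpad tumors and 244 to 289 CPM in flank tumors. Of 12, 4 were called higher, against 2.89% of all genes tested. A higher fitted mean in footpad tumors was seen for 11 of the 12 markers, and none was at 0 reads in all tumors. The log2 ratio of Igfbp7 to their sum was -3.10, -3.13 and -2.61 in footpad tumors and -3.21, -3.63 and -4.36 in flank tumors, a difference of 0.79 without overlap (exact permutation p = 0.1). With the median of the markers it was 0.57, with overlap (exact permutation p = 0.3). Relative to macrophage markers Igfbp7 differed by -0.28, with overlap (exact permutation p = 1.0). The ratios of Igfbp5 and Igfbp6 to the endothelial sum differed by 4.14 and 2.89. Relative to the melanocyte markers, the differences were 5.36 for Igfbp5, 4.11 for Igfbp6 and 2.0 for Igfbp7, each without overlap (exact permutation p = 0.1 for every one). Mural cell markers summed to 194 to 288 CPM against 89.3 to 152 CPM, with 3 of 10 tested called higher, against 2.89% of all genes tested. Of 7 tendon markers 2 were tested, and the sum of 38.7 to 192 CPM against 0.0345 to 8.72 CPM was nearly all Thbs4, at 36.9 to 186 CPM against 0 to 8.45 CPM. Scx and Mkx had at most 10 reads, and Kera had 0 reads in all tumors. The labels say that whole tumors were removed for RNA, while the study's methods speak of isolated tumor cells, a step that would lower the markers of other cells. The part of any of these cells in the rise of the 3 binding proteins was not tested.

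**Figure D4:**
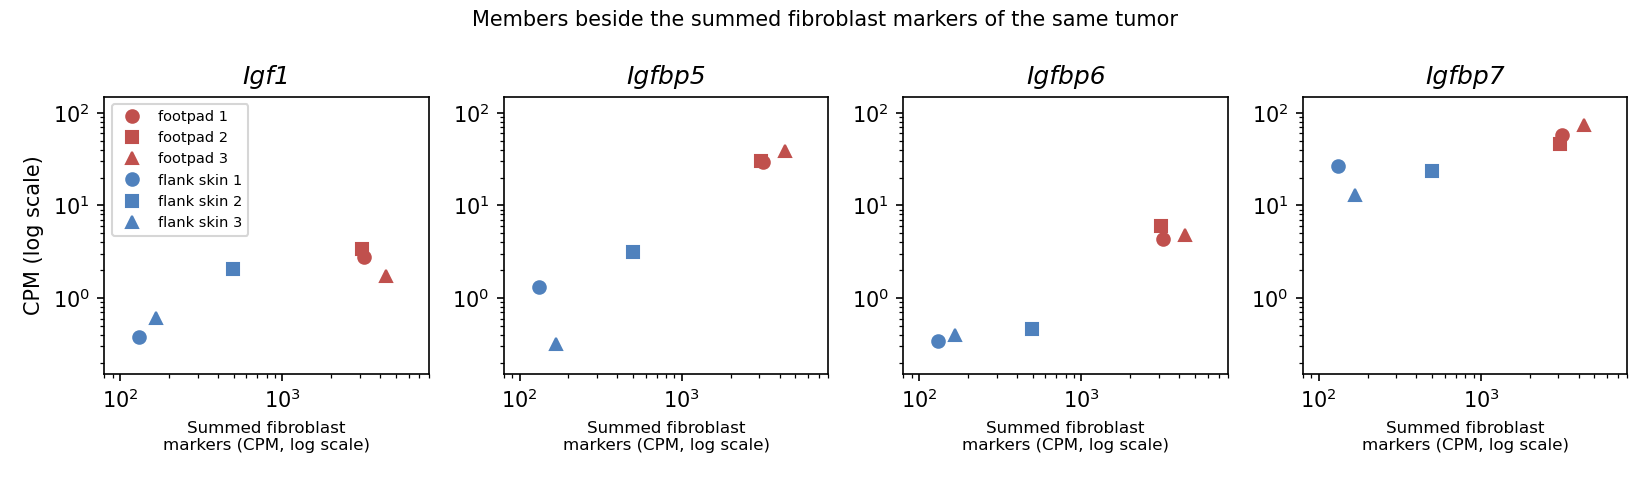
CPM of Igf1, Igfbp5, Igfbp6 and Igfbp7 (vertical axes, log scale) against the summed CPM of 15 fibroblast markers in the same tumor (horizontal axes, log scale), 1 symbol per tumor. Footpad tumors sit at 3080 to 4336 CPM of markers and flank tumors at 131 to 497 CPM. The sites lie apart for Igfbp5, Igfbp6 and Igfbp7, while for Igf1 flank replicate 2 (2.04 CPM) reaches the footpad range.

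The wider pathway was read from 6 lists with 61 genes, of which 53 were tested. By edgeR 2 rose and 0 fell, with 13 higher and 7 lower at an unadjusted p under 0.05. The share called by edgeR, 3.77%, was near the 3.76% of all genes tested, and nothing about the pathway is read from it. DESeq2 called 6 of the 53 higher and 2 lower, against 6.71% of all genes higher and 2.05% lower. From this count, too, nothing about the pathway is read. Grb10, an adaptor that inhibits the insulin and IGF-I receptors, was at 28.6, 21.1 and 27.2 CPM in footpad tumors and at 7.14, 8.98 and 10.5 CPM in flank tumors (log2 fold change 1.53, SE 0.21, adjusted p = 0.0154 from edgeR). Socs2, a target and inhibitor of growth hormone signaling, was at 7.0, 6.37 and 7.39 CPM against 3.26, 3.25 and 3.12 CPM (log2 fold change 1.11, SE 0.22, adjusted p = 0.0360 from edgeR). Without footpad replicate 2 edgeR called both, with log2 fold changes of 1.65 for Grb10 (adjusted p = 0.0194) and 1.16 for Socs2 (adjusted p = 0.0447). Socs2 missed the threshold in the other 5 fits without a tumor, with adjusted p from 0.0619 to 0.144 in edgeR, and without a filter on low counts (0.0514), and its log2 fold change on log2(FPKM + 1) was 0.70. Grb10 was lost without footpad replicate 1, footpad replicate 3 or flank replicate 3, with adjusted p of 0.0715, 0.0889 and 0.0625 in edgeR. The sites did not overlap for either gene. Over the 53 genes the median log2 fold change was 0.12. Without footpad replicate 1, footpad replicate 3 or flank replicate 3, 0 of the list passed, with 14, 15 and 16 genes at an unadjusted p under 0.05, while 4 passed without footpad replicate 2. Without flank replicate 1, 1 gene passed, Grb10.

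Among the other ligands and receptors, 1 of 5 genes was tested. Insr, the insulin receptor, had a log2 fold change of -0.24 (adjusted p = 0.304 from edgeR). The second ligand, Igf2, did not pass the filter on low counts. It had 36, 54 and 4 reads in footpad tumors and 4, 4 and 7 reads in flank tumors, or 0.808, 0.788 and 0.0817 CPM against 0.0690, 0.0684 and 0.112 CPM. Footpad replicates 1 and 2 stood above the other 4 tumors, and the sites overlapped. Ins1 and Ins2 had 0 reads.

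None of the 6 tested extracellular regulators was called by edgeR, 5 had an unadjusted p under 0.05 (3 of them higher) and DESeq2 called 2, Stc2 and Htra1. Pappa, the protease that cuts Igfbp4 and Igfbp5, was at 3.41, 1.63 and 3.04 CPM in footpad tumors and at 0, 1.04 and 0.160 CPM in flank tumors (log2 fold change 2.74, adjusted p = 0.197 from edgeR). Igfals, the acid-labile subunit of circulating IGF complexes, had a log2 fold change of 0.73 (adjusted p = 0.729 from edgeR). Igfbpl1 had 0 reads. Htra1, a secreted protease of binding proteins chosen after its values were seen, was at 3.97, 6.29 and 7.80 CPM against 1.86, 1.88 and 0.687 CPM, and just missed the threshold (log2 fold change 2.03, adjusted p = 0.0508 from edgeR). Adam12, also in this list and named after its values were seen, went the other way. It was at 34.7, 34.0 and 54.0 CPM against 62.0, 65.9 and 69.2 CPM (log2 fold change -0.68, adjusted p = 0.0860 from edgeR).

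None of 22 signal transducers was called by edgeR, with 4 at an unadjusted p under 0.05 (2 higher and 2 lower), or by DESeq2, and their median log2 fold change was 0.03. Irs1, Irs2 and Shc1, which couple the receptor to PI3K and MAPK signaling, had values of -0.23, 0.63 and -0.23. Of 15 restraints on the pathway, edgeR called Grb10 alone. DESeq2 called Grb10 higher and also 2 restraints lower, Ddit4 and Trib3, stress-induced inhibitors of mTORC1 and of AKT. Their log2 fold changes in edgeR were -1.08 and -1.23 (adjusted p = 0.0945 and 0.0884), and edgeR called Trib3 lower without flank replicate 2 (-1.54, adjusted p = 0.0410). In the growth hormone axis, edgeR called 1 of 6 genes, Socs2, and DESeq2 called Socs2 and Ghr. The receptor Ghr was at 9.81, 6.62 and 8.84 CPM against 4.81, 4.82 and 2.75 CPM, without overlap (log2 fold change 1.03, adjusted p = 0.0879 from edgeR). Of the Igf2 mRNA-binding proteins, Igf2bp2 was at 5.25, 1.97 and 3.39 CPM against 1.03, 1.28 and 0.527 CPM (log2 fold change 1.90, adjusted p = 0.0665 from edgeR). DESeq2 called Igf2bp2 higher. Igf2bp1 and Igf2bp3 had log2 fold changes of 0.73 and 0.08.

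Genes with the most similar pattern were found by the root mean square difference of log2 CPM over the 6 tumors, each gene centered on its own mean, among 11215 genes. For Igf1 these were Slc8a1, a sodium-calcium exchanger, Heg1, a transmembrane receptor, and Ctss, a lysosomal protease of antigen-presenting cells, at distances of 0.37, 0.37 and 0.40 on the log2 scale. For Igfbp5 they were Loxl1, a matrix cross-linking enzyme, Slc7a2, a transporter of cationic amino acids, and Masp1, a protease of the lectin pathway of complement, at 0.46, 0.61 and 0.62. For Igf1r, which had the lowest log2 fold change, they were Gmeb1, Hsf1 and Cpsf7 at 0.06 each. Within the family, the closest pair was Igf1r and Igfbp3 at 0.31. The 3 called genes lay farther apart, Igfbp5 and Igfbp6 at 1.12, Igfbp6 and Igfbp7 at 1.12 and Igfbp5 and Igfbp7 at 1.80, and among flank tumors Igfbp5 varied 9.90-fold and Igfbp6 1.34-fold. Genes were not scaled to a common spread, so that these distances also count differences in the size of the fold change.

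**Figure D5:**
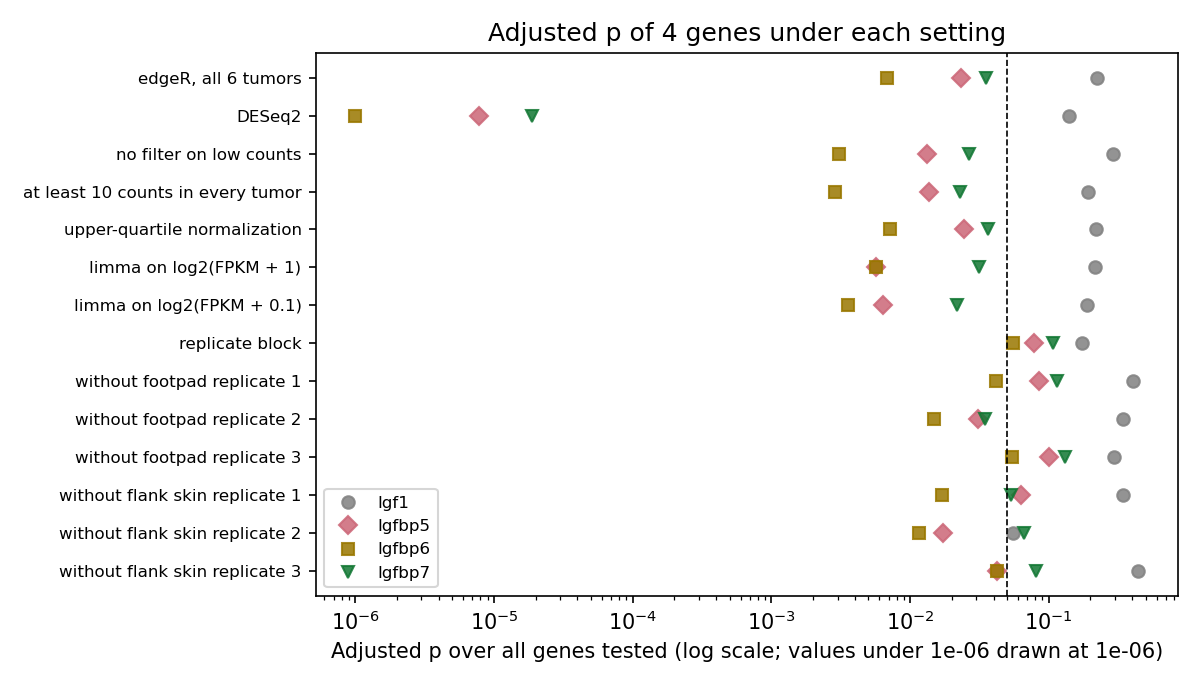
Adjusted p over all genes tested (horizontal axis, log scale) of Igf1, Igfbp5, Igfbp6 and Igfbp7 with all 6 tumors, under each alternative and without each tumor, and the dashed line at 0.05. Igfbp6 stays under the line in all but the fit without footpad replicate 3 (0.0541) and the fit with the replicate number as a block (0.0552), and Igf1 stays above it throughout.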

How the data were processed

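RNA of 3 footpad and 3 flank skin B16F10 tumors was analysed, grouped by the sample labels. Libraries were made by the authors with a stranded total RNA kit, and reads were trimmed with Trimmomatic and aligned to mm10 with HISAT2 2.1.0, per the submitters' processing notes. Deposited were the unnormalized count of reads for each gene and, by the authors, FPKM, which corrects for transcript length and library size. The counting program and the criterion of their filter are not given in the sources used here.

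The main test was edgeR 4.0.16 under R 4.3.3 (filterByExpr, TMM, glmQLFit, glmQLFTest, Benjamini-Hochberg adjustment). The common biological coefficient of variation was 0.338. Standard errors were approximated as the log2 fold change over the square root of F, and 95% intervals from them. Tumors of a site differed by more than counting noise, with a chi-square of 63.9 to 564 per gene. Single values were compared with two-sided exact permutation tests. Log2 CPM used a prior count of 1. Of the genes of the IGF pathway, every called gene and the first 4 others of a list could be named. Stc2, Htra1, Adam12, Ddit4 and Trib3 were named after their values were seen. Patterns alike were sought for Igf1, the largest rise and the lowest fold change, among genes with a mean log2 CPM of 1 or more, without predicted genes and other members.

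Alternatives were DESeq2 1.42.0, no filter or 10 counts in every tumor, upper-quartile normalization, limma 3.58.1 on log2(FPKM + 1) and log2(FPKM + 0.1), the replicate number as a block, other thresholds and leaving out each tumor. The scripts were tested on simulated data. Members, lists and tests were chosen with earlier results of these data known. Promoter sequences and gene positions are from RefSeq (GRCm38.p6), where all 9 genes matched by gene ID. Protein sequences were not used here. One pathway gene is not reported here.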

Additional observations from a re-analysis of the deposited data

How the results depend on the processing

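Of the 9 genes, 3 were called in the 6-tumor fit, and leaving out each tumor in turn gave 0 to 3 calls. The number was 0 without footpad replicate 3 (3 members at an unadjusted p under 0.05 in edgeR), 1 without footpad replicate 1 and 1 without flank replicate 1, where Igfbp6 was the gene called. With the replicate number as a block, 0 members and 0 pathway genes passed in edgeR, as did 0 of all genes, although 5 members and 15 pathway genes had an unadjusted p under 0.05. The log2 fold changes under the block were 4.73 for Igfbp5, 3.63 for Igfbp6 and 1.52 for Igfbp7. The study's methods describe injection of both sites at the same time, but no source ties numbers to mice. The numbers were therefore not taken as pairs. Deviations from the site means correlated at 0.0544, -0.0965 and -0.115 for replicates 1, 2 and 3. With 3 tumors a site, such values cannot show which tumors shared a mouse. The 2 called pathway genes became 8 with DESeq2 and 8 at an adjusted p under 0.1, where 8.75% and 7.71% of all genes were called. They became 1 without a filter on low counts, and 0 to 4 when each tumor was left out. All other settings kept both numbers within 1.5 times.

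The log2 fold change of Igf1r turned positive with 10 counts in every tumor (0.0167), with upper-quartile normalization (0.01567), without footpad replicate 2 (0.16) and without flank replicate 2 (0.04), and its range over the fits without a tumor was -0.22 to 0.16. The difference in the log2 ratio to macrophage markers turned positive when their median level was used, for Igf1 (0.194) and Igfbp7 (0.0206). Without single tumors it ranged from -0.365 to 0.204 for Igf1 and from -0.767 to 0.543 for Igfbp7. The other 14 ratios and the 6 shares kept their direction under every alternative run, although sizes moved, as with Igfbp5 relative to fibroblast markers (0.22 to 1.42 without single tumors). On log2(FPKM + 1) the log2 fold changes of the low genes shrank, to 0.24 for Igf1 and 2.27 for Igfbp5. With 20 to 27 reads of Igfbp6 and 22 to 119 reads of Igf1 in flank tumors, depth limits the precision of their folds.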
